A study of Mus musculus with 29 samples.

Results

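The cadherins and protocadherins were followed across 15 RNA-seq libraries of sorted mouse retinal cells. The members are the genes whose symbol is Cdh followed by a number, or Pcdh followed by a number or by a, b or g, which gave 94 of the 24062 genes in the table. They fall into 23 numbered cadherins, 12 single protocadherins and 59 clustered protocadherins. Pan-BC libraries (all bipolar cells, 3 libraries) were single-sorted from Otx2-GFP+/- mice, which carry GFP at the endogenous Otx2 locus. ON-BC and OFF-BC libraries (3 each) came from Otx2-GFP+/-; Grm6-YFP+/+ mice, in which the Grm6 promoter drives YFP in ON bipolar cells, and OFF-BC were sorted a second time. These mice were 42 to 48 days old, and all of the bipolar libraries therefore carry the Otx2-GFP allele. Rods (3 libraries, Nrl-eGFP) and blue cones (3 libraries, Nrl-eGFP;NrlKO, used as a surrogate because photoreceptors without Nrl develop as blue cones) came from mice 56 days old that the same laboratory had studied before. Cell class, study, age and reporter genotype therefore cannot be told apart wherever bipolar cells are set against photoreceptors. Likewise, the second sort cannot be told apart from cell type where OFF-BC are set against ON-BC. A minor ON type with weak YFP, BC5D, was left out of both the ON-BC and the OFF-BC sort. ATAC-seq, which maps open chromatin, covered the same 5 populations and green cones (Opn1mw-GFP, day 56) with 2 libraries each, and there the pan-BC libraries also came from the double transgenic mice.

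Cadherins are calcium-dependent adhesion molecules that join cells through their extracellular repeats. Classical cadherins bind like to like and hold on to actin through catenins, and in the retina the type II members Cdh8 and Cdh9 are known to steer the axons of particular OFF and ON bipolar types to their layers. The delta protocadherins are single genes that signal through actin regulators such as the WAVE complex. The clustered protocadherins lie in 3 tandem arrays on chromosome 18, where each neuron switches on its own selection of variable exons, and the resulting surface code lets sister branches of a cell recognise and avoid each other.

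The RNA libraries held 12329548 to 26266746 counted reads, and the ATAC libraries 4176776 to 12345845. Values below are normalised read counts, that is, reads per gene divided by a size factor for each library. Nrl, the transcription factor that sets rod identity, lay between 11476 and 16599 in rods and between 486 and 764 in blue cones, and Grm6, the glutamate receptor of ON bipolar cells, lay between 13260 and 13835 in ON-BC and between 64.9 and 593 in OFF-BC. Summed cone markers in the bipolar libraries came to 0.251% to 5.58% of their level in blue cones, with the highest value in OFF-BC 3, and summed rod markers to 0.17% to 1.97% of their level in rods. In bulk RNA of this kind, fewer cells of a type and less RNA per cell cannot be told apart.

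Of the 94 members, 79 had at least 10 reads in every pan-BC library, 76 did so for ON-BC and 78 for OFF-BC, against 56 for blue cones and 38 for rods. These were 84.0% of the members in pan-BC and 40.4% in rods, where 52.2% and 45.6% of all genes reached this level. A filter on low counts left 82 members among the 14024 genes tested. The 12 that did not pass were Cdh1, Cdh3, Cdh5, Cdh7, Cdh15, Cdh19, Cdh23, Cdh24, Cdh26, Pcdha4, Pcdha4-g and Pcdhb1. None of them had more than 13 reads in a library, and Pcdha4-g had 0 reads in all 15. Pcdha4 and Pcdha4-g had 0 and 41 exon bases not shared with another gene, so their low counts cannot be read as low expression. A gene that passed the filter through only 1 population was bound to differ from the others, so the counts below describe the members and are not evidence about them. Cdh5, the VE-cadherin of blood vessels, had at most 5.88 normalised counts. Cdh23, the partner of Pcdh15 in the tip links of hair cells, had at most 14.3, and its 3 highest values, 14.3, 7.82 and 6.01, were those of OFF-BC.

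Bipolar cells carried far more of the family than rods did. In the comparison of pan-BC with rods, 54 members were higher in pan-BC, where 27.8% of all genes tested were, and 1 member was higher in rods, where 15.8% were. A gene was called when limma's test against a log2 fold change of 1 gave a Benjamini-Hochberg adjusted p below 0.05. The median log2 fold change was 3.35 over the members tested and 0.21 over all genes tested. Scaling by library totals instead moved the median of all genes by 0.34 and the share of called genes that were higher in pan-BC from 63.8% to 74.0%. Against blue cones, 36 members were higher in pan-BC (22.7% of all genes) and 1 was lower (13.7% of all genes), with medians of 1.32 and 0.16. Both comparisons use the same 3 pan-BC libraries.

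**Figure D1:**
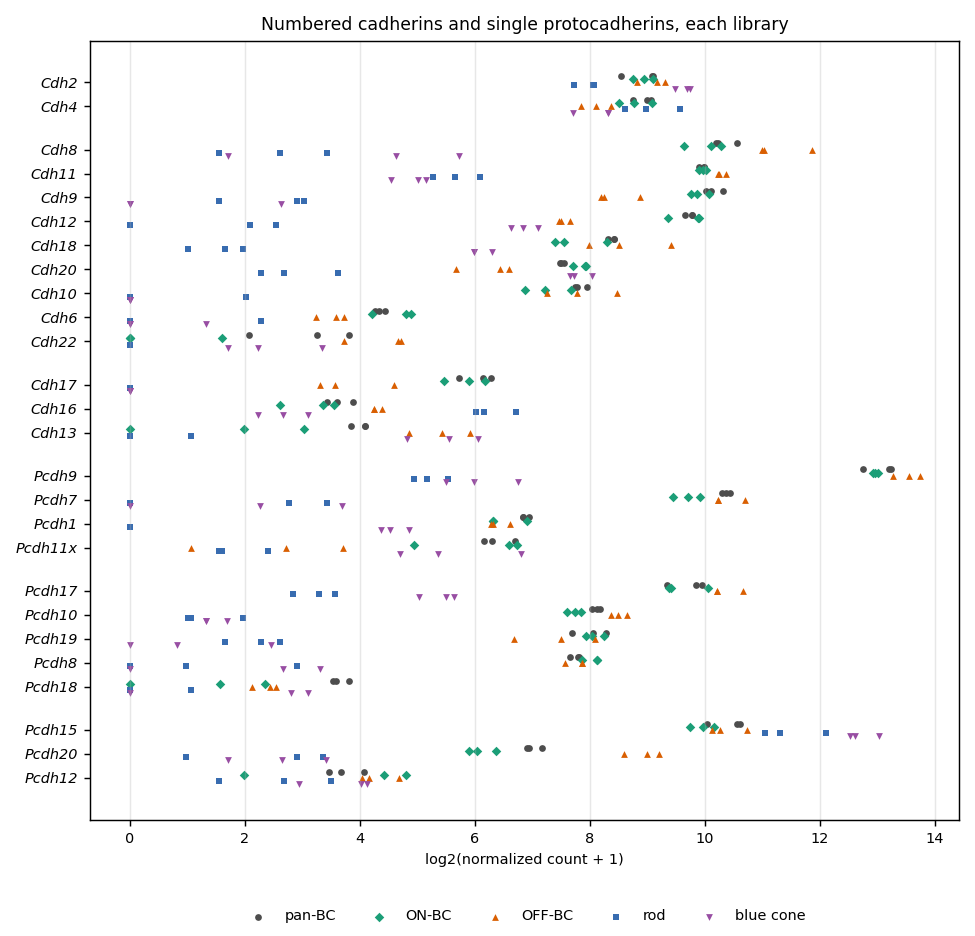
Each point is 1 RNA library, with log2(normalised read count + 1) on the x axis and the numbered cadherins and single protocadherins that passed the filter as rows, coloured by population. For most genes the rod and blue cone points lie to the left of the bipolar points, whereas Pcdh15 runs the other way and Cdh2 and Cdh4 are well detected in every population.

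Among the type II classical cadherins, 9 of 13 could be tested. All 9 exceeded rods in pan-BC, and 7 exceeded blue cones, where 27.8% and 22.7% of all genes tested did. Cdh8 measured 1196, 1169 and 1510 in pan-BC, 1.94, 5.12 and 9.73 in rods, and 51.9, 2.28 and 23.7 in blue cones. Cdh9 measured 1276, 1037 and 1109 in pan-BC, 1.94, 7.17 and 6.48 in rods, and 0, 0 and 5.18 in blue cones. The groups did not overlap for either gene, and log2 fold changes against rods were 7.80 for Cdh8 (SE 0.69, adjusted p = 1e-07) and 7.65 for Cdh9 (SE 0.54, adjusted p = 6.03e-09). Cdh11, the osteoblast cadherin, was almost as abundant in pan-BC at 991 ± 35.8 (SD, n = 3) but kept a low level in rods (51.5 ± 14.7) and blue cones (29.3 ± 6.39).

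Cdh12, Cdh18 and Cdh20, also of type II, separated rods from blue cones as well as bipolar cells from rods. Cdh12 measured 876, 802 and 881 in pan-BC, 4.85, 0 and 3.24 in rods, and 137, 97.9 and 114 in blue cones. Cdh18 measured 318, 342 and 340, then 2.91, 1.02 and 2.16, then 62.4, 77.4 and 62.2 in the same order. Both were thus near background in rods, intermediate in blue cones and highest in bipolar cells. For Cdh20 blue cones lay near bipolar cells, with 201, 262 and 212 against 178, 181 and 187 in pan-BC and 3.88, 11.3 and 5.4 in rods, and the test against pan-BC made no call (log2 fold change -0.30, SE 0.31). Cdh10 had 3 reads in the rod libraries together and 0 in the blue cone libraries, against 621 in pan-BC, so that it was at least 301-fold higher in pan-BC than in blue cones on a floor of 3 reads over the group.

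The type I cadherins did not follow this pattern. Cdh2 (N-cadherin, the main adhesion molecule of neural tissue) measured 548, 372 and 543 in pan-BC, 210, 269 and 266 in rods, and 830, 859 and 713 in blue cones. Its highest values were in blue cones and its lowest in rods, and the difference between those groups passed the test (log2 fold change -1.69, SE 0.17, adjusted p = 0.0041), whereas neither difference from pan-BC did. Summed Muller glia markers had the same order, at 13786 to 17179 in blue cones, 7201 to 8734 in pan-BC and 2099 to 3417 in rods. Whether such RNA contributes to the Cdh2 values was not tested. Cdh4 (R-cadherin, first known from retina) lay between 432 and 533 in pan-BC, 390 and 756 in rods, and 208 and 320 in blue cones, with no call in any of the 4 comparisons. Cdh1 and Cdh3, the epithelial and placental cadherins, were near 0 in all populations.

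Of the remaining numbered cadherins, Cdh17, the liver-intestine cadherin, had 0 reads in rods and in blue cones and measured 52.1, 69.6 and 77.1 in pan-BC. On a floor of 3 reads over the group it was at least 64.4-fold higher than in rods and at least 87.8-fold higher than in blue cones. Cdh16, the kidney cadherin, ran the other way and was the only member called higher in rods than in pan-BC. It measured 64, 104 and 70.2 in rods, 13.8, 11.1 and 9.79 in pan-BC and 7.52, 5.31 and 3.7 in blue cones, with a log2 fold change of -2.66 for pan-BC against rods (SE 0.37, adjusted p = 0.000616). It was also the only member that limma called higher in rods than in blue cones (log2 fold change 3.64, SE 0.37, adjusted p = 1.88e-05), while edgeR also called Pcdhga1 (adjusted p = 0.0441).

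Per kilobase of countable exon, Pcdh9 stood first of the members in all 3 bipolar populations, at 1388 ± 242 for pan-BC, 1284 ± 41.3 for ON-BC and 1907 ± 305 for OFF-BC (SD, n = 3). In pan-BC it was followed by Cdh9 (333 ± 35.9), Pcdhgc4 (272 ± 7.96) and Cdh8 (246 ± 36.1), and the last pair differed by less than their spread. In rods and blue cones the first place went to Pcdh15, at 188 ± 76.6 and 429 ± 82.1 per kilobase. Behind it, rods had Pcdhgc3 (94 ± 23), Pcdhga4 (92.9 ± 8.37) and Cdh4 (81.7 ± 27.8), which did not differ beyond their spread, and blue cones had Pcdhac2 (169 ± 43.6), Pcdhgc3 (169 ± 26.5) and Cdh2 (165 ± 15.9), which did not either.

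All 4 delta-1 and 5 delta-2 protocadherins were higher in pan-BC than in rods, where 27.8% of all genes tested were. Pcdh9, of the delta-1 branch, measured 9424, 6925 and 9635 in pan-BC, 34.9, 29.7 and 45.4 in rods, and 62.4, 44 and 107 in blue cones. Pcdh7, its relative, measured 1260, 1321 and 1383 in pan-BC and at most 11.8 in any photoreceptor library. Log2 fold changes against rods were 7.85 for Pcdh9 (SE 0.24, adjusted p = 1.54e-13) and 8.30 for Pcdh7 (SE 0.77, adjusted p = 1.65e-07). Pcdh1 had 0 reads in the 3 rod libraries and 321 in pan-BC, at least 114-fold higher, and it was detected in blue cones at 19.6, 22 and 28.1.

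Of the delta-2 branch, Pcdh17, which acts at synapses, was the most abundant in pan-BC, at 924, 651 and 986, against 8.73, 6.15 and 10.8 in rods and 48.9, 31.9 and 44.4 in blue cones. Pcdh10, Pcdh19 and Pcdh8 had means of 276, 261 and 215 in pan-BC and stayed under 9 in each photoreceptor library. Pcdh19 is the X-linked gene behind a form of epilepsy, and Pcdh8 is an activity-regulated protocadherin. Pcdh18 was scarce everywhere, with a highest value of 13.1 in pan-BC 2.

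All 36 regions tested around Pcdh9 were more accessible in pan-BC than in rods, and 34 were more accessible than in blue cones, where 40.3% and 28.8% of all regions were. The regions near Pcdh9 with the largest change against blue cones are shown with a region near Cdh9 that was among the 3 largest against rods. Each is 201 bases of the GRCm38/mm10 plus strand, read from the RefSeq genome, with capitals at TAATCC (or GGATTA on the other strand), a core bound by K50 homeodomains such as Crx and Otx2, and at TAATTA, a core bound by Q50 homeodomains.
Pcdh9 region chr14:93621176-93621376: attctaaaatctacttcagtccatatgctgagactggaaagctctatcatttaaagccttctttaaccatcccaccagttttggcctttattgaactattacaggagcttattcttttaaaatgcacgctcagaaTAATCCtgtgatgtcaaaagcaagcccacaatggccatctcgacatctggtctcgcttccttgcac
Pcdh9 region chr14:94091974-94092174: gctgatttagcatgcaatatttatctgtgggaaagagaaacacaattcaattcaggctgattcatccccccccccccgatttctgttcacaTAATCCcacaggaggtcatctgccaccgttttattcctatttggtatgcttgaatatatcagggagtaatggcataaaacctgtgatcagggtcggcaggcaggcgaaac
Pcdh9 region chr14:94479792-94479992: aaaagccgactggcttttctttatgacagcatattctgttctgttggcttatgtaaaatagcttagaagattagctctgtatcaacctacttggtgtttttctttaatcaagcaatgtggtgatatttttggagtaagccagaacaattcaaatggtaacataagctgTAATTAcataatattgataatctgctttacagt
Cdh9 region chr15:16653758-16653958: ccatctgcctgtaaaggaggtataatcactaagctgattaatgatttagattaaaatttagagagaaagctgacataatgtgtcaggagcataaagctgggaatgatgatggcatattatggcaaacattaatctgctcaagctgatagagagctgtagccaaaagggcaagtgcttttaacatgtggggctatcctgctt

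The region at chr14:93621176-93621376 lies in an intron of Pcdh9, 269.4 kb into the gene, and the others near Pcdh9 are intergenic, 201.4 and 589.2 kb upstream. The pan-BC libraries had 165 and 263 normalised reads in the intronic region, the ON-BC libraries 343 and 325, the OFF-BC libraries 31 and 19.5, and the 6 photoreceptor libraries 0. It was called higher in ON-BC than in OFF-BC (log2 fold change 3.71, SE 0.58, adjusted p = 0.00408), although each OFF-BC library held more Pcdh9 RNA (13711, 12080 and 9914) than each ON-BC library (7798, 7945 and 8300). The region at chr14:94091974-94092174 gave 176 and 206 in ON-BC against 25.6 and 20.4 in OFF-BC.

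The Cdh9 region, intergenic and 75.1 kb upstream of the gene, had 193 and 250 reads for ON-BC but 6.74 and 7.79 for OFF-BC, with 0 in both rod libraries and 1.3 and 2.17 for blue cones. ON-BC exceeded OFF-BC with a log2 fold change of 4.74 (SE 0.60, adjusted p = 0.000609). In all, 11 of the 31 regions tested near Cdh9 were higher in ON-BC and 0 were higher in OFF-BC, against 4.58% and 2.8% of all regions.

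Pcdh15, a tip-link protein of hair cells that is also present in photoreceptors and is mutated in Usher syndrome, was the exception among the single protocadherins. It measured 8363, 6297 and 5925 in blue cones, 4408, 2107 and 2527 in rods and 1562, 1047 and 1511 in pan-BC. It was the only member that limma called higher in blue cones than in pan-BC (log2 fold change -2.33 for pan-BC against blue cones, SE 0.24, adjusted p = 0.000102), and the groups did not overlap. Rods were also above pan-BC in every library, but this difference was not called (log2 fold change -1.08, SE 0.24, adjusted p = 0.667). Of the 39 regions tested near Pcdh15, 13 were more accessible in rods than in pan-BC and 4 less, against 11.2% and 40.3% of all regions. Its promoter region (chr10:73821784-73821984) had 311 and 302 reads for rods, 137 and 155 for blue cones and 86.4 and 135 for pan-BC, which put rods above the rest although blue cones had the most RNA. The intronic regions below are the 3 near Pcdh15 that were more accessible in blue cones than in pan-BC.
Pcdh15 region chr10:73922563-73922763: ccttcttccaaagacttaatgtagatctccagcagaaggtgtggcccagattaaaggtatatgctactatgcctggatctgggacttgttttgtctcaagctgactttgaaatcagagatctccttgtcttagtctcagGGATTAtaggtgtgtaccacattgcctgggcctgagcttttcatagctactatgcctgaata
Pcdh15 region chr10:73742179-73742379: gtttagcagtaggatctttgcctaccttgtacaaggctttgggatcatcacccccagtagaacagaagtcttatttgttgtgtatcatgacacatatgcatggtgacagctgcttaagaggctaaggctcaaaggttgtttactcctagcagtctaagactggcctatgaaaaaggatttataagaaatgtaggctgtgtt
Pcdh15 region chr10:73621231-73621431: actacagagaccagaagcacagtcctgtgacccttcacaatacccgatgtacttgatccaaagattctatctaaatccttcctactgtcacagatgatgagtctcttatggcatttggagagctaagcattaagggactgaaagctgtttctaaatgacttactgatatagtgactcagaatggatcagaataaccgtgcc

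At chr10:73742179-73742379 the rod libraries had 64.6 and 50.1 reads, the blue cone libraries 28.5 and 45.5, the green cone libraries 40 and 33.8, and the pan-BC libraries 3.2 and 2.28. At chr10:73922563-73922763 they were lower, with at most 22.5 in a photoreceptor library and 0 in both pan-BC and both ON-BC libraries. At chr10:73621231-73621431 rods had 54.5 and 71.8, blue cones 59.6 and 53.5, and pan-BC 10.4 and 9.12. All 3 regions had more reads in every rod and blue cone library than in any pan-BC library.

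The 3 clusters behaved differently from each other. Summed over its 15 genes, the alpha cluster reached 1393, 1403 and 1381 in pan-BC, 62.1, 44 and 48.6 in rods, and 860, 952 and 1239 in blue cones. The beta cluster (22 genes) summed to 4775, 4117 and 4538 in pan-BC, 894, 765 and 821 in rods, and 2423, 2404 and 2498 in blue cones. Rods were therefore lowest in both clusters, by 26.5-fold and 5.41-fold against pan-BC, and blue cones lay between. For these sums the exact two-sided permutation test gave p = 0.1 for each of these pairs, which is the smallest value that 3 against 3 libraries allow. The alpha and gamma genes share constant exons, so the reads counted to a gene can come from its variable exon only. Pcdha4 and Pcdha7 had 0 exon bases that no other gene of the RefSeq annotation shares and Pcdha4-g had 41, so their levels are uncertain, and closely similar beta genes may have split reads in ways these counts cannot show.

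**Figure D2:**
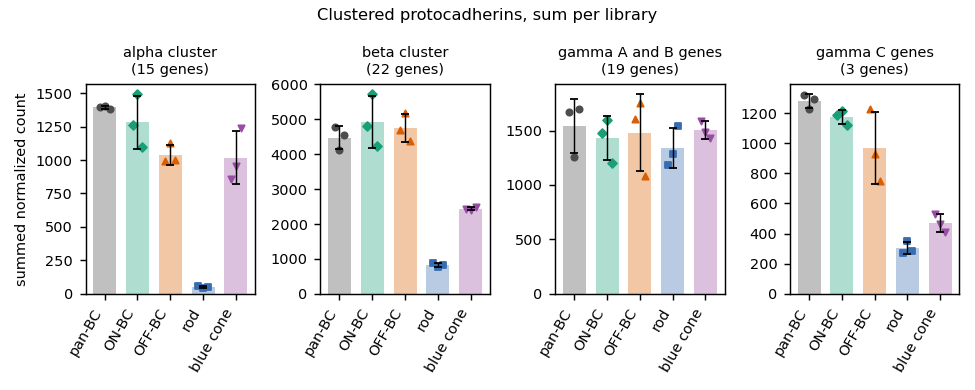
Summed normalised read counts (y axis) of the alpha cluster, the beta cluster, the gamma A and B genes and the gamma C genes (panels) by population, with each library as a point, the mean as a bar from 0 and the SD as an error bar (n = 3). The alpha, beta and gamma C sums are lowest in rods, while the gamma A and B sums of the 15 libraries lie between 1086 and 1752.

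Between pan-BC and rods the gamma cluster differed least in its sum, by 1.72-fold. Between pan-BC and blue cones the alpha cluster differed by 1.37-fold in its sum, and by 2.09-fold without Pcdhac1 and Pcdhac2. The gamma cluster differed by 1.43-fold there. Its A and B genes (19 genes) summed to 1541 ± 249 for pan-BC, 1428 ± 201 for ON-BC, 1482 ± 350 for OFF-BC, 1336 ± 184 for rods and 1502 ± 81.5 for blue cones (SD, n = 3), so that the 5 groups overlapped, and pan-BC against rods gave p = 0.3 in the exact permutation test. Its C genes (Pcdhgc3, Pcdhgc4 and Pcdhgc5) summed to 1279 ± 44.7 for pan-BC, 304 ± 40.8 for rods and 470 ± 60.3 for blue cones. This split of the cluster was made after seeing the values. Gene by gene, 13 of the 15 alpha genes were higher in pan-BC than in rods, with the other 2 (Pcdha4 and Pcdha4-g) not tested. So were 18 of the 21 beta genes tested but only 2 of 22 gamma genes, against 27.8% of all genes tested.

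**Figure D3:**
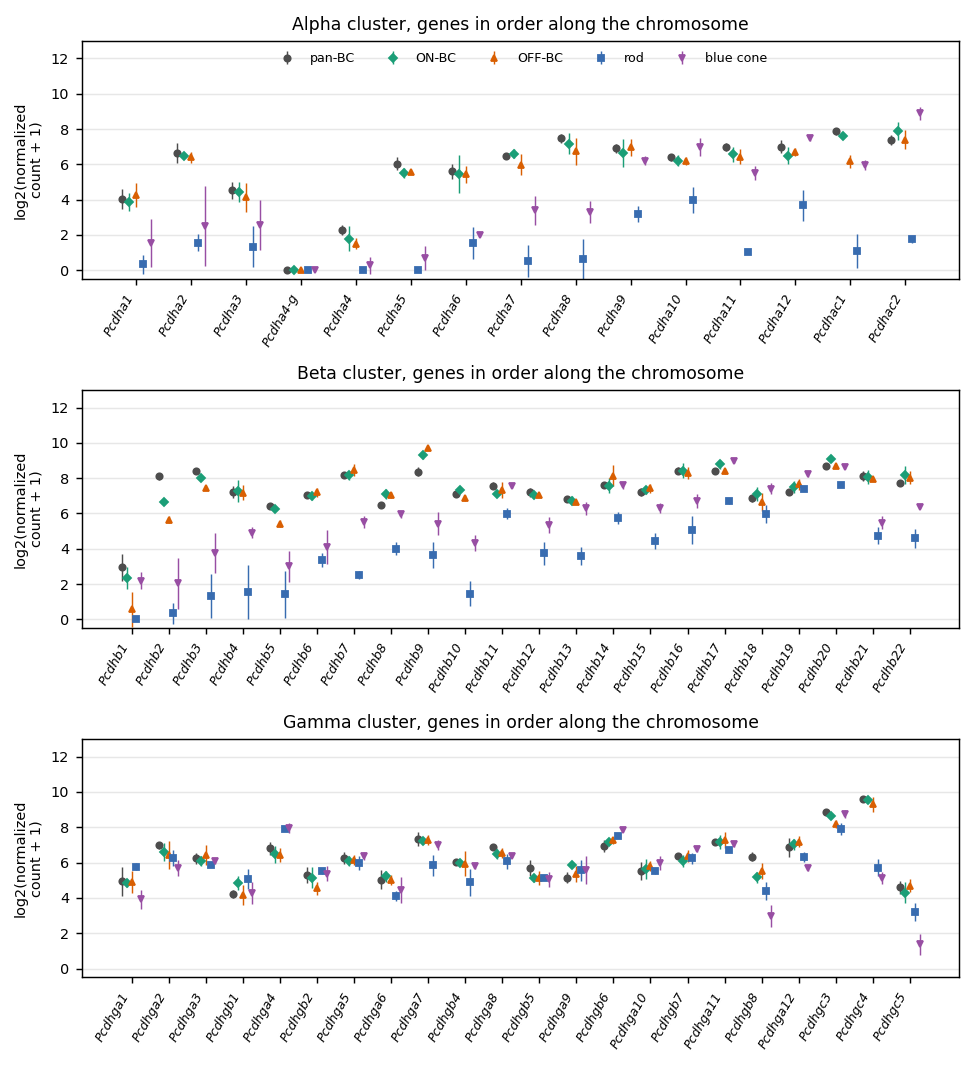
Mean of log2(normalised read count + 1) with the SD as error bars (y axis, n = 3) for each gene of the alpha, beta and gamma clusters (panels), in order along chromosome 18 (x axis) and coloured by population. Rods lie lowest for nearly every alpha gene and most beta genes and among the other populations for the gamma A and B genes, and blue cones change from low to high between Pcdha8 and Pcdha9.

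Pcdhgc4, a gene needed for neuronal survival, held the largest share of the C gene sum in pan-BC. It measured 807, 765 and 801 in pan-BC, 57.2, 34.8 and 69.2 in rods, and 31.6, 27.3 and 45.1 in blue cones, with log2 fold changes of 3.91 (SE 0.25, adjusted p = 1.29e-08) and 4.50 (SE 0.25, adjusted p = 2.65e-09). Pcdhgc3 was present in all populations, at 464 ± 20.6, 241 ± 59 and 434 ± 68 in pan-BC, rods and blue cones (SD, n = 3), and was not called in any comparison. Pcdhgb8 was the other gamma gene higher in pan-BC than in rods (81 ± 12.5 against 20.9 ± 7.4, SD, n = 3). Some gamma genes leaned the other way without a call, such as Pcdhga4 with 143, 82.7 and 115 in pan-BC and 218, 240 and 262 in rods.

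Along the alpha cluster blue cones held little of the first genes and more of the later ones, a split noticed in these values. Pcdha1 to Pcdha8 had between 0 and 19.0 normalised counts in each blue cone library, whereas Pcdha9 to Pcdha12 ranged from 34.0 to 191. Pcdha8 measured 190, 144 and 197 in pan-BC and 9.03, 13.7 and 5.18 in blue cones, and its neighbour Pcdha9 measured 140, 97.9 and 122 in pan-BC and 71.4, 60.7 and 88.8 in blue cones. Pcdhac2, the last gene of the array, had its highest values in blue cones, at 382, 445 and 622 against 151, 145 and 212 in pan-BC, and was almost absent from rods at 2.91, 2.05 and 2.16. It is a C-type isoform that neurons tend to express from both chromosomes. The difference between rods and blue cones was the largest of all members in that comparison (log2 fold change -7.14, SE 0.31, adjusted p = 4.42e-11), and the difference between pan-BC and blue cones was not called by limma (log2 fold change -1.50, adjusted p = 0.158) but was by edgeR (adjusted p = 0.0151).

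The promoter of Pcdhac2 did not follow its RNA. The region 197 bp upstream of its start had 27.2 and 27.4 reads for pan-BC, 94.2 and 96.2 for rods, 175 and 173 for blue cones, and 142 and 124 for green cones. It was called higher in rods than in pan-BC (log2 fold change -1.77 for pan-BC against rods, SE 0.33, adjusted p = 0.0304) although rods held at most 2.91 normalised counts of the RNA. The Pcdhac1 promoter, in contrast, was low in rods (12.5 and 15.6) and similar in pan-BC (96 and 100) and blue cones (76.4 and 76.6), and its RNA measured 1.40 ± 1.22 in rods, 236 ± 32.6 in pan-BC and 62.9 ± 13.2 in blue cones (SD, n = 3).

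In the beta cluster the genes ranged from near 0 in rods to levels like those of pan-BC. Pcdhb2 had 1 read in the 3 rod libraries and 763 in pan-BC, a ratio of 814 (exact 95% interval for counting error, 146 to 32190). Pcdhb3 measured 362, 311 and 345 in pan-BC, 1.94, 0 and 4.32 in rods and 18.1, 22.8 and 4.44 in blue cones. Both had their lowest mean in rods, and Pcdhb3 was called higher in blue cones than in rods (log2 fold change -2.43, adjusted p = 0.0474). Pcdhb19 lay at the other end, with 139, 145 and 155 in pan-BC, 157, 173 and 161 in rods, and 308, 260 and 335 in blue cones. Pcdhb20 and Pcdhb18 were the other beta genes tested but not called between pan-BC and rods, and Pcdhb17, which was called against rods, was no lower in blue cones (480, 475 and 573) than in pan-BC (357, 326 and 313). Between pan-BC and blue cones 10 of 21 beta genes and 7 of 13 alpha genes tested were called. All of them were higher in pan-BC, where 22.7% of all genes were.

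For 2 members the pan-BC libraries lay above each ON-BC and OFF-BC library and over 2-fold above both of their means. Pcdhb3, Pcdhgb8 and Pcdhgc3 also lay above each of these libraries, but not over 2-fold above both means. Pcdhb2 measured 317, 242 and 275 in pan-BC, 97, 113 and 87.2 in ON-BC, and 46.9, 57.7 and 44.1 in OFF-BC. Pcdh18 had 10.6, 13.1 and 11 in pan-BC and at most 4.81 in ON-BC and OFF-BC. Of all genes tested, 0.777% had pan-BC values higher than in each of the 6 other bipolar libraries and over 2-fold above both of their means, a rule chosen after seeing the values. A further 0.62% lay below in the same way, with 0 members among them.

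Rods differed from blue cones in 26 members. Of these, 25 were higher in blue cones, where 11.3% of all genes were, and 1 (Cdh16) was higher in rods, where 4.63% were. The median log2 fold change of the members tested was -1.09, against -0.00 over all genes. By group, 8 of 13 alpha genes, 9 of 21 beta genes and 0 of 22 gamma genes tested were higher in blue cones. So were 3 of 9 type II cadherins and 3 of 12 single protocadherins tested, with Cdh2 and Cdh13. After Pcdhac2 the largest changes were those of Cdh12 (log2 fold change -5.32, SE 0.43), Cdh13 (-5.12, SE 0.62) and Cdh20 (-4.95, SE 0.31), which had adjusted p = 3.22e-07, 3.86e-05 and 1.36e-08. Cdh13 had 1 read in the rod libraries and measured 45.9, 65.3 and 27.4 in blue cones. Pcdh11x, an X-linked delta-1 gene, varied between blue cone libraries, with 39.9, 25 and 110, and still cleared rods at 1.94, 2.05 and 4.32.

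Between ON and OFF bipolar cells few of all genes tested were called, so a low count does not set the members apart. Few members were called. They were 4 of the 82 members tested, 1 higher in ON-BC (2.95% of all genes were) and 3 higher in OFF-BC (3.6% of all genes were), and none of the 56 clustered genes tested. The count was again 4 without OFF-BC 3, the library with the most cone marker RNA, with Cdh17 called (log2 fold change 2.41, adjusted p = 0.0375) and Pcdh11x not, and it was 2 without ON-BC 2, when Cdh13 and Cdh22 were called. The median log2 fold change was -0.00 over the members and -0.02 over all genes.

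**Figure D4:**
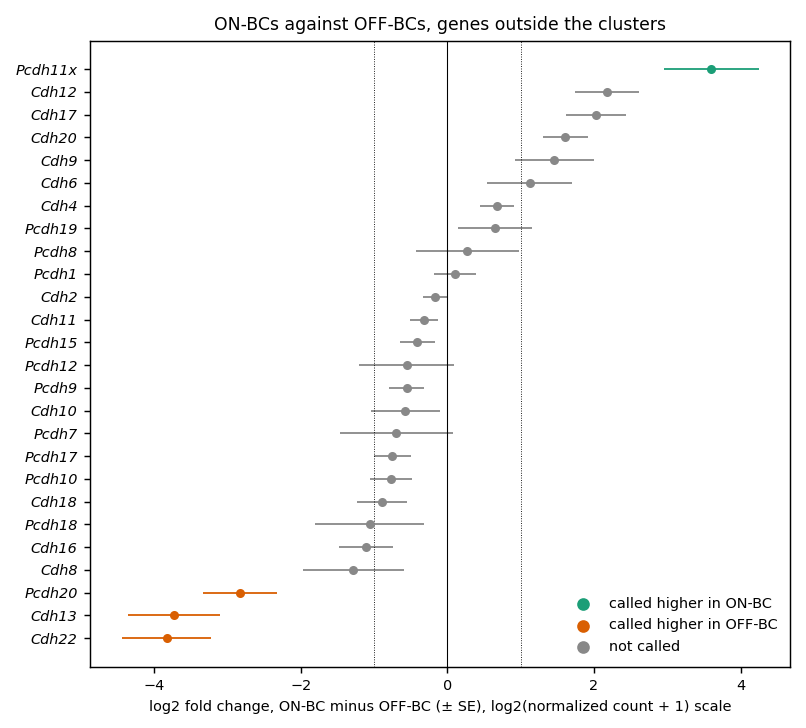
Log2 fold change of ON-BC against OFF-BC (x axis, positive when higher in ON-BC, on the log2(normalised count + 1) scale) with the SE as error bars, for the numbered cadherins and single protocadherins tested (rows). The called genes, in colour, are Pcdh11x on the ON side and Pcdh20, Cdh13 and Cdh22 on the OFF side, and dotted lines mark a log2 fold change of 1 in either direction.

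Pcdh11x (chrX:120290238-120910622) was the member higher in ON-BC. The ON-BC libraries had 96, 106 and 29.8, the OFF-BC libraries 5.59, 12 and 1.1 and the pan-BC libraries 77.6, 70.6 and 103, and the log2 fold change was 3.60 (SE 0.65, adjusted p = 0.00995). The ON-BC and OFF-BC libraries did not overlap, but the call was lost without OFF-BC 3 (adjusted p = 0.0635), without ON-BC 1 (0.0551) or without ON-BC 2 (0.0561). Its promoter region did not separate the populations, with 20.9 and 19 in ON-BC and 24.2 and 26.3 in OFF-BC, while rods and blue cones had 0 in all 4 libraries.

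Pcdh20 (chr14:88464743-88471396) was the most abundant of the OFF genes. It measured 511, 592 and 384 in OFF-BC, 81.5, 64.7 and 58.5 in ON-BC, 122, 119 and 143 in pan-BC and at most 9.62 in a photoreceptor library. The log2 fold change was -2.83 (SE 0.51, adjusted p = 0.0199), and adjusted p rose to between 0.0598 and 0.0897 when OFF-BC 1, OFF-BC 2, ON-BC 2 or ON-BC 3 was left out. Cdh22 (chr2:165111501-165234924), a type II cadherin of the pituitary and brain, had 12.3, 25.2 and 24.3 in OFF-BC and 0, 0 and 2.05 in ON-BC, a ratio of 30.4 with an exact 95% interval of 8.02 to 257 for counting error. It passed the test at a low level (adjusted p = 0.00293).

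Cdh13 (chr8:118140017-119324929) encodes T-cadherin, which has no cytoplasmic tail and is held in the membrane by a lipid anchor. It measured 27.9, 42 and 59.6 in OFF-BC, 0, 2.94 and 7.18 in ON-BC and 16, 16.1 and 13.5 in pan-BC, and its log2 fold change was -3.73 (SE 0.62, adjusted p = 0.00482). The OFF-BC values lay within the range of blue cones (45.9, 65.3 and 27.4). Summed cone markers in OFF-BC 1, 2 and 3 came to 1.38%, 1.29% and 5.58% of their blue cone level, and without OFF-BC 3 the log2 fold change was -3.47 (adjusted p = 0.028). Of 48 regions tested near Cdh13, 7 were higher in OFF-BC and 1 in ON-BC, against 2.8% and 4.58% of all regions. The 3 with the largest change towards OFF-BC are shown first, then the 2 regions near a called member that changed towards ON-BC, near Cdh13 and Pcdh20.
Cdh13 region chr8:118503614-118503814: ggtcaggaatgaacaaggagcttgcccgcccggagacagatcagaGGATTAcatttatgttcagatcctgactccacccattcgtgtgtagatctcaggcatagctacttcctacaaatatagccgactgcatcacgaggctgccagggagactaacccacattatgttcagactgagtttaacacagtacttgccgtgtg
Cdh13 region chr8:118437944-118438144: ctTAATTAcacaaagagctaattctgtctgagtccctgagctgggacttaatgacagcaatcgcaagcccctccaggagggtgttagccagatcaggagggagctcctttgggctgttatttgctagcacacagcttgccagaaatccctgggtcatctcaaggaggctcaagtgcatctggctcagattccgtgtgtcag
Cdh13 region chr8:118635855-118636055: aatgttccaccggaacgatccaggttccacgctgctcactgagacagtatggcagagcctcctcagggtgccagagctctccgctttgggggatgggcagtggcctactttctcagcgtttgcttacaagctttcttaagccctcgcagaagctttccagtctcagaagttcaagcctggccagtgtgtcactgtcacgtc
Cdh13 region chr8:118337963-118338163: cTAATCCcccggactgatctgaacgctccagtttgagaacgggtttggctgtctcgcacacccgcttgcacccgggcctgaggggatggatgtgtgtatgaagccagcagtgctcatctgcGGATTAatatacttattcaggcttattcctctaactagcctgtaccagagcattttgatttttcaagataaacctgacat
Pcdh20 region chr14:88842171-88842371: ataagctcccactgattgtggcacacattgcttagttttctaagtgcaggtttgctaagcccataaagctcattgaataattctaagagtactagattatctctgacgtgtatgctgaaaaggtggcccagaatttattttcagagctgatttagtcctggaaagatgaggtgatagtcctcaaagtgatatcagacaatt

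The first 3 of these Cdh13 regions lie in introns, 220.1, 154.4 and 352.3 kb from the gene's start. Those at 220.1 and 154.4 kb were shared with cones. The region at chr8:118503614-118503814 had 13.5 and 13.6 reads for OFF-BC, 0 in both ON-BC libraries, 29.8 and 31.8 in blue cones, 40 and 38 in green cones, and 3.12 and 2.71 in rods (ON-BC against OFF-BC, log2 fold change -3.86, SE 0.61, adjusted p = 0.00401). The region at chr8:118437944-118438144 counted 32.3 and 15.6 in OFF-BC, 2.99 and 0 in ON-BC, 66.1 and 62.9 in blue cones and 0 and 1.36 in rods. The fourth Cdh13 region, 54.5 kb into the gene, had the opposite profile, with 88.1 and 108 for ON-BC, 10.8 and 11.7 for OFF-BC and at most 4.22 in any photoreceptor library. The Pcdh20 region, intergenic and 370.9 kb upstream, counted 47.8 and 43.9 in ON-BC and 2.69 and 4.87 in OFF-BC (log2 fold change 3.33, SE 0.69, adjusted p = 0.0286), opposite in direction to the RNA.

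Cdh8 and Cdh9 went in opposite directions between ON-BC and OFF-BC but were not called. In this comparison, as in the others, the SE of each gene came from the single fit of all 15 libraries. It therefore includes the spread among rod and blue cone libraries and is not that of ON-BC and OFF-BC alone. Cdh8 measured 797, 1250 and 1099 in ON-BC and 2035, 3718 and 2104 in OFF-BC (log2 fold change -1.29, SE 0.69). Cdh9 measured 865, 1074 and 933 in ON-BC and 292, 466 and 305 in OFF-BC (log2 fold change 1.46, SE 0.54). Neither gene's groups overlapped, and the test against a log2 fold change of 1 gave an adjusted p of 1 for both. Cdh12 was also not called (938, 960 and 659 against 181, 175 and 201, log2 fold change 2.17, SE 0.43, adjusted p = 0.102), but it was called by edgeR (adjusted p = 1.28e-05) and by DESeq2 (adjusted p = 2.88e-09) on the recovered reads. Cdh17, Cdh20 and Pcdhac1 were likewise higher in each ON-BC library than in each OFF-BC library with no call by limma, at log2 fold changes of 2.02, 1.61 and 1.44. Of these, edgeR called Cdh17 (adjusted p = 0.0498) and Cdh20 (adjusted p = 0.0302), and DESeq2 called none of the 3.

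The partners of the cadherins were read from lists of related genes. Of 10 catenins and anchors tested, pan-BC exceeded rods for 4 and fell below them for 2 (median log2 fold change 0.31), where 27.8% and 15.8% of all genes did. Against blue cones 3 were higher and 2 lower (22.7% and 13.7% of all genes), 1 was higher in OFF-BC than in ON-BC (3.6% of all genes) and 1 was higher in blue cones than in rods (11.3% of all genes). Ctnna2, the alpha catenin of neurons, measured 1048 ± 64 in pan-BC and 24.7 ± 6.46 in rods, and Ctnnd2, the neuronal delta catenin, 1006 ± 34.5 and 5.43 ± 0.973 (SD, n = 3), with log2 fold changes of 5.38 (adjusted p = 1.69e-11) and 7.30 (adjusted p = 4.15e-12). Ctnna1, the widespread alpha catenin, ran the other way and measured 1183 ± 51.5 for pan-BC, 4126 ± 910 for rods and 9529 ± 200 for blue cones. Ctnna1 also separated the bipolar classes, at 667 ± 111 in ON-BC and 3061 ± 482 in OFF-BC (log2 fold change -2.20, adjusted p = 2.30e-05). Jup, or plakoglobin, was higher in blue cones (1124 ± 70.7) than in pan-BC (163 ± 34.9) and rods (123 ± 14.6).

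Among 14 other members of the cadherin superfamily tested, pan-BC exceeded rods for 10 and fell below them for Cdhr1 (median log2 fold change 3.64), where 27.8% and 15.8% of all genes did. Against blue cones 8 were higher and 2 lower (22.7% and 13.7% of all genes). Rods against blue cones gave 0 higher and 5 lower (4.63% and 11.3%), and ON-BC against OFF-BC gave 1 higher and 3 lower (2.95% and 3.6%). Cdhr1, the photoreceptor cadherin of outer segment discs, measured 60655 ± 4046 in blue cones, 22756 ± 5062 in rods and 3847 ± 237 in pan-BC (SD, n = 3). The atypical cadherin Fat4 measured 1673 ± 416 in OFF-BC and 22.5 ± 24.1 in ON-BC (log2 fold change -6.67, SE 0.59, adjusted p = 2.34e-06), a larger difference than that of any numbered cadherin or protocadherin. Fat3, known for shaping amacrine dendrites, was also higher in OFF-BC (1254 ± 176 against 158 ± 52.8), as was the calsyntenin Clstn2 (651 ± 120 against 160 ± 23.2), and the desmocollin Dsc2 was higher in ON-BC (40.9 ± 13.8 against 1.52 ± 1.70). In the list of WAVE complex and focal adhesion kinase genes 2 of 11 were higher in pan-BC than in rods (Brk1 and Ptk2b), against 27.8% of all genes, with a median log2 fold change of -0.07. In the same list 3 were higher in pan-BC than in blue cones (22.7% of all genes). Ptk2b was higher in OFF-BC than in ON-BC (3.6% of all genes), and 1 was higher in blue cones than in rods (11.3% of all genes). Of 5 genes for cadherin processing 0 were called by limma in any of the 4 comparisons.

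The ATAC-seq table held 110715 regions, of which 548 had a member's start site as the nearest and 534 could be tested. Near members, pan-BC exceeded rods at 347 regions and fell below them at 33, as they did at 40.3% and 11.2% of all regions. Against blue cones the numbers were 267 and 31 (28.8% and 7.13% of all regions), and between ON-BC and OFF-BC they were 42 and 13 (4.58% and 2.8% of all regions). With any 1 of these ON-BC or OFF-BC libraries left out, 27 to 36 regions near members were called in place of 55, with the lone library assumed to vary like the other groups. Only 30 of the regions tested lay near clustered protocadherins, and 13 of these were higher in pan-BC than in rods, against 236 of 359 near numbered cadherins and 98 of 145 near single protocadherins.

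**Figure D5:**
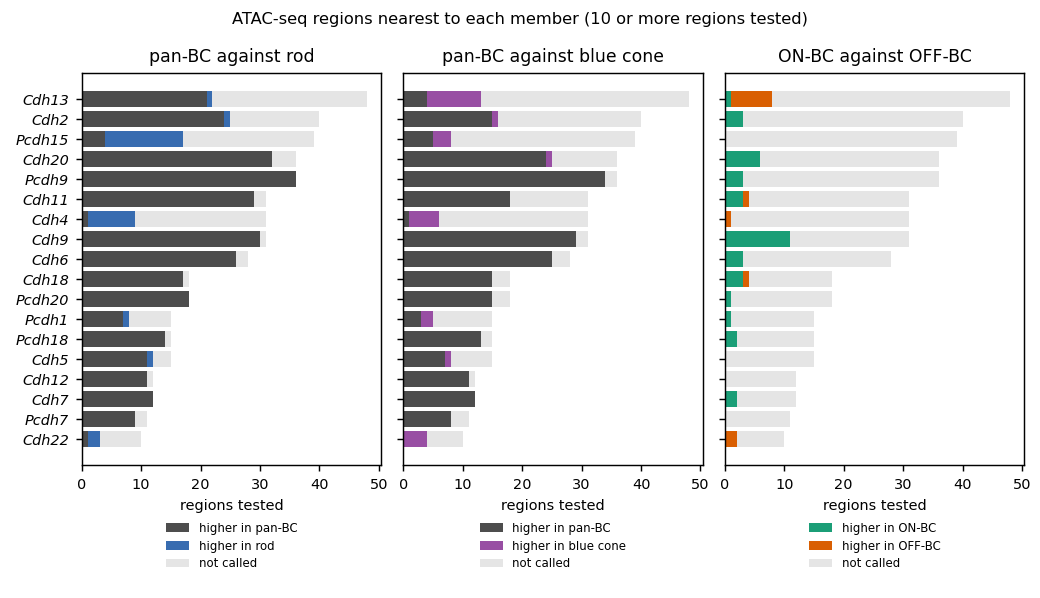
Number of ATAC-seq regions tested (x axis) for each member with 10 or more (rows), split by colour into those called in either direction and those not called, for pan-BC against rods, pan-BC against blue cones and ON-BC against OFF-BC (panels). Regions near Pcdh9, Cdh20, Cdh9 and Cdh11 were mostly higher in pan-BC than in rods, whereas Pcdh15 and Cdh4 had more regions higher in rods.

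Promoter regions, centred at most 1000 bp before or 100 bp after a start site, could be tested for 42 regions near members. Of the 54 members with more RNA in pan-BC than in rods, 19 had a promoter region, which was higher in pan-BC for 15 and lower for 1, Pcdhac2. Over all promoter regions tested, whatever the RNA of their gene, 17.2% were higher in pan-BC and 13.8% in rods. The like count near members was 21 of 42 promoter regions higher in pan-BC and 4 higher in rods. The share over all genes with more RNA in pan-BC was not computed, so the 15 of 19 has no like share beside it. Of the 27 members with no RNA call, 9 had a promoter region, 0 of them higher in pan-BC and 2 of them, those of Cdh4 and Pcdh15, higher in rods. The promoter of Cdh18, at 257 and 416 in pan-BC, 0 in both rod libraries and 15.5 and 15.9 in blue cones, had the same order as its RNA. The promoter of Cdh7 was open in pan-BC (57.6 and 86.1) and closed in rods (0 in both) although its RNA was at most 13.2 in any library. Between ON-BC and OFF-BC none of the 42 promoter regions was called, so the 55 called regions were all distal. Such calls were rare among all 16495 promoter regions tested, with 0.37% called towards ON-BC and 0.90% towards OFF-BC. Their absence near members therefore does not set the members apart.

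The homeodomain cores were counted in these regions. TAATCC was found on either strand in 21.8% of all 110715 regions and in 30.0% of the 506 distal regions near members, against 24.6% of all distal regions. TAATTA, which reads the same on both strands, was found in 5.22% of all regions and in 8.89% of distal regions near members, against 5.93% of all distal regions. The E-box CANNTG, also its own complement, was found in 68.9% of all regions and 70.6% of distal regions near members, against 72.6% of all distal regions, and the motifs may overlap each other. Of the 29 distal regions near members that were higher in rods than in pan-BC, 15 held TAATCC (51.7%, against 42.9% of all such regions) and 0 held TAATTA (6.87% of all such regions). Among the printed regions TAATCC occurred, on either strand, 2 times in the Cdh13 region that was higher in ON-BC. It occurred 1 time in the Cdh13 region at chr8:118503614-118503814, which was higher in OFF-BC. The Pcdh15 region at chr10:73922563-73922763 and the Pcdh9 regions at chr14:93621176-93621376 and chr14:94091974-94092174 also held it 1 time each. TAATTA occurred in the Cdh13 region at chr8:118437944-118438144, higher in OFF-BC, and the intergenic Pcdh9 region at chr14:94479792-94479992.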

How the data were processed

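RNA-seq was made from 15 libraries of sorted mouse retinal cells (3 per population) and ATAC-seq from 12 (2 per population), grouped by the labels. Per the labels and the study's methods, the authors aligned single-end RNA reads, prepared with an amplification kit that does not mark strand, with STAR 2.7.0d to GRCm38/mm10, counted them per RefSeq gene with HTSeq, and aligned ATAC-seq reads with Bowtie2 2.2.5, keeping short fragments and calling regions with MACS2 2.1.1 in each library before uniting them. The deposited values in both tables are a signal, normalised counts in which whole reads were divided by a size factor for each library. Multiplying by that factor, read from the step between low values, recovered whole reads for 100.0% of values above 0 (within 0.01 reads). RNA libraries held 12329548 to 26266746 counted reads and ATAC-seq libraries 4176776 to 12345845.

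Low values were filtered with edgeR 4.0.16 (filterByExpr), which left 14024 genes and 108448 regions. The remaining values were tested as log2(normalised count + 1) with limma 3.58.1 against a log2 fold change of 1, in a single fit of all libraries of an assay, with Benjamini-Hochberg adjustment over all features and a threshold of 0.05. Fold changes on this scale understate low genes. Cluster sums were compared with exact two-sided permutation tests. Per the labels, ages differ between some libraries of a bipolar population, which therefore came from different animals. Where ages are the same the labels do not say, and p-values measure the spread between these libraries. Intervals for counts cover counting error only. The scripts were tested on simulated data. Regions were given to the gene with the nearest of 31647 RefSeq start sites, and sequences come from the RefSeq GRCm38 genome.

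The members and gene lists were chosen with earlier results of these data known. Named were the called members with the largest changes (up to 10 in each direction), the 3 most abundant of each subfamily, Cdh2, Cdh5, Cdh23 and Pcdh15, and up to 3 called regions in each direction near the called members. Members that did not pass the filter, Pcdh18, Pcdha1, Pcdha8, Pcdha9, Pcdhb18, Pcdhb19, Pcdhga1, Pcdhga4, Pcdhgb8, Pcdhgc5 and promoter regions were named after their values were seen. Alternatives were other scalings, filters, pseudocounts, tests (edgeR, and DESeq2 1.42.0, on the recovered reads), sets of libraries, a replicate block and leaving out each library. Green cones had no RNA libraries and were not compared by test.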

Additional observations from a re-analysis of the deposited data

How the results depend on the processing

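Between ON-BC and OFF-BC, the test against no change called 3783 genes and 12 members in place of 919 and 4, and edgeR called 7 members. Against no change 11156 genes differed between pan-BC and rods (6112 against a log2 fold change of 1) and 10704 between pan-BC and blue cones (5092). Between rods and blue cones 8068 genes and 49 members did (2231 and 26). For ATAC-seq, ON-BC against OFF-BC gave 4791 regions with DESeq2 and 12927 with edgeR (8010 with limma), and near members 36, 90 and, for regions in or within 10 kb of a member, 34 (55 as reported). The cause was not tested, except that no change is a looser test. Leaving out each library gave 790 to 882 genes and 2 to 4 members for ON-BC against OFF-BC, 5833 to 5959 and 54 to 56 for pan-BC against rods, 4760 to 5022 and 34 to 38 for pan-BC against blue cones, and 2029 to 2376 and 24 to 27 for rods against blue cones. For ATAC-seq it gave 47228 to 50800 regions and 342 to 355 near members against rods, 27793 to 33645 and 235 to 274 against blue cones, and 4014 to 5950 and 27 to 36 between ON-BC and OFF-BC.

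With the median over a cluster's genes in place of the sum, log2 ratios moved as follows. Pan-BC over rods was 5.22 for alpha (4.73 as a sum), 3.40 for beta (2.44), 0.55 for gamma (0.78), 0.55 for gamma A and B (0.21), 3.09 for gamma C (2.07) and 5.33 for alpha without its C genes (4.34). Pan-BC over blue cones was 2.70 for alpha (0.45), 1.57 for beta (0.87), 0.40 for gamma A and B (0.04), 3.70 for gamma C (1.44) and 3.52 for alpha without its C genes (1.07). Rods over blue cones was -2.52 for alpha (-4.27), -1.84 for beta (-1.56) and -1.81 for alpha without its C genes (-3.27), and turned from -0.63 to 0.62 for gamma C. ON-BC over OFF-BC turned from 0.05 to -0.029 for beta and from 0.09 to -0.11 for gamma. The cause was not tested. Among named members, 3 with no call between ON-BC and OFF-BC changed sign, Pcdh1 without ON-BC 2 (log2 fold change between -0.089 and 0.21 over the libraries left out), Pcdh12 without ON-BC 2 (-1.09 to 0.32) and Pcdha11 without OFF-BC 3 or ON-BC 2 (-0.063 to 0.39, with -0.020 without OFF-BC 3). Of the other values for named members, 1076 kept their direction and call, 17 gained and 7 lost a call.

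The replicate numbers are shared between populations, and the ages of ON-BC and OFF-BC match by number (43, 48 and 42 days in RNA, 42 and 46 in ATAC-seq), but the labels do not say that a number marks the same animals. Deviations of same-numbered ON-BC and OFF-BC libraries correlated at -0.0763, 0.222 and -0.0649 in RNA and 0.000174 in ATAC-seq, over 0.1 in 1 pair only, so the numbers were not taken to pair the libraries. With the replicate block 1014 genes and 6 members (4 without it) were called between ON-BC and OFF-BC, 53 members between pan-BC and rods, 38 between pan-BC and blue cones, 21 between rods and blue cones, and 8822 ATAC-seq regions, 70 of them near members (55 without it), between ON-BC and OFF-BC. Not every library correlated best with its own number. In RNA, ON-BC 3 correlated with OFF-BC 1 at 0.212 and ON-BC 1 with OFF-BC 3 at 0.141, and a pairing across numbers was not tested. Depth limits the low genes: a group at 0 reads allows up to 3 reads over its libraries, and Cdh22 and Cdh13 rest on few reads in ON-BC.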
